A study of Homo sapiens with 5 samples.

Results

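MAPK6, the gene for the atypical MAP kinase ERK3, was examined together with 4 related genes in RPE-1 cells after knockdown of FAM53C. These were MAPK4, which encodes ERK4, MAPKAPK5, which encodes the kinase MK5 that ERK3 binds, MAPK3, which encodes ERK1, and MAPK7, which encodes ERK5. The genes were chosen by name as 5 of the 64252 gene identifiers in the count table because MAPK6 was known to be much lower after the knockdown, so the values of these 5 genes in siCtrl and siFAM53C are a description and carry no test. Of the 5 genes, 4 passed the filter on low counts, as did 15341 genes in all, and MAPK4 did not.

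RPE-1 is an immortalized human retinal pigment epithelial cell line, and the labels give its genotype as wild-type in both groups. Cells received either the ON-TARGET Control #1 siRNA (siCtrl, 3 libraries) or pooled ON-TARGETplus siRNAs that target FAM53C (siFAM53C, 2 libraries), at 5 µM by the labels, and polyA RNA was sequenced 48 hr later. The methods speak of duplicates, and all 3 siCtrl libraries of the count table were used. Total counts over genes were 24099968, 19694561 and 19260124 for siCtrl 1 to 3 and 25615415 and 22993116 for siFAM53C 1 and 2. The sources used here do not say that the libraries of a group came from separate cultures, so the p-values measure only the spread between these 5 libraries, and in bulk RNA fewer cells of a kind cannot be told apart from less RNA per cell.

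In the classical MAP kinase cascade, receptors and RAS switch on RAF kinases, RAF kinases switch on MEK kinases, and these phosphorylate classical ERKs such as ERK1 on a threonine and a tyrosine of the activation loop. ERK5 has the same Thr-Glu-Tyr loop and its own upstream kinase, MEK5. ERK3 and ERK4 carry Ser-Glu-Gly in that place, are phosphorylated there by PAK kinases and bind and activate MK5, and ERK3 protein is short-lived and turned over by the proteasome.

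The loop is shown here because it is what separates the atypical from the classical members. Each line is 30 bases of coding sequence from GENCODE 44 on GRCh38, 5′ to 3′ on the strand of the gene, with the codons of Ser-Glu-Gly or Thr-Glu-Tyr in capitals. The stretches of MAPK6 and MAPK4 each span 2 exons and are shown joined.
MAPK6: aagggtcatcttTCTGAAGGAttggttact
MAPK4: aagggttatctgTCAGAAGGGttggtaaca
MAPK3: accggcttcctgACGGAGTATgtggctacg
MAPK7: cagtacttcatgACTGAGTATgtggccacg
The capitals begin at codon 189 of 721 in MAPK6, 186 of 587 in MAPK4, 202 of 379 in MAPK3 and 219 of 816 in MAPK7. MAPK6 and MAPK4 had 24 of the 30 bases in common and MAPK3 and MAPK7 22, whereas MAPK6 had 14 in common with MAPK3 and 12 with MAPK7. The stretches lie at chr15:52047013-52050019 for MAPK6, chr18:50664502-50715105 for MAPK4, chr16:30118086-30118115 for MAPK3 and chr17:19380852-19380881 for MAPK7, and the MAPK3 gene is on the minus strand.

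The target of the siRNAs and the identity of the cells were checked first. FAM53C had 1434, 1141 and 1099 counts in siCtrl and 375 and 525 in siFAM53C. It was therefore lower in both siFAM53C libraries, with a log2 difference of -1.71 ± 0.19 (SE) and a Benjamini-Hochberg adjusted p of 0.003625 in the quasi-likelihood test of edgeR. Among genes known from this line, the epithelial keratin KRT8 was at 236 to 328 CPM (counts scaled to a common library size) and the pigment epithelium transcription factors MITF and OTX2 were detected in all 5 libraries. RPE65, a defining gene of mature retinal pigment epithelium, had 0 counts in all 5 libraries, RLBP1 and TYR had at most 2 counts in any library, and BEST1 stayed at or below 0.786 CPM. Markers of other cell types were at or near 0, with CD3E and ALB at 0 counts and PTPRC, PECAM1 and EPCAM at no more than 20 counts in any library.

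The libraries also differed along an axis that did not separate the siRNA groups. A principal component analysis of log2 CPM placed them as follows on its first axis (39.8% of the variance): siCtrl 3 (33.7) and siFAM53C 2 (44.9) lay opposite siCtrl 1 (-31.5) and siCtrl 2 (-47.4), with siFAM53C 1 (0.26) between them. The names of the sequencing libraries give both siCtrl 3 and siFAM53C 2 the number 3, which coincides with the split, and no label says what that number stands for. The split was thus taken with these same counts known. Adjusted p-values from a fit with a term for it may be too small and are given only as an alternative setting. The split puts siFAM53C 1 with siCtrl 1 and 2, although on this axis it lay between the sides. How far the axis also holds a difference between siRNAs was not tested. Values within each side, siFAM53C 1 against siCtrl 1 and 2, and siFAM53C 2 against siCtrl 3, are given below where they matter.

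MAPK6 (ENSG00000069956, chr15:51952106-52067375 of GRCh38, plus strand) had 3788, 3356 and 3087 counts in siCtrl and 714 and 632 in siFAM53C. After scaling, the values were 161, 176 and 162 in siCtrl and 27.0 and 26.8 CPM in siFAM53C. Both siFAM53C libraries lay far below every siCtrl library, and the libraries within each group were close together. The mean was 166 ± 8.30 CPM (SD, n = 3) in siCtrl and 26.9 ± 0.116 CPM (SD, n = 2) in siFAM53C. This is 6.17-fold lower, or -2.63 on the log2 scale (SE 0.11). MAPK6 was thus lower by more than FAM53C itself, at -1.71, in these libraries. On the sides of the split the differences were -2.63 and -2.59, as large as over all libraries. Of the 15341 genes, 3.47% were called lower by the test and 0.489% higher, and in 18.8% both siFAM53C libraries lay below every siCtrl library, but since MAPK6 was chosen on this comparison nothing is read from its place among them.

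MAPKAPK5 (ENSG00000089022, chr12:111842013-111902222, plus strand), the kinase partner of ERK3, had 567, 556 and 551 counts in siCtrl and 781 and 676 in siFAM53C. After scaling this is 24.1, 29.1 and 28.9 CPM in siCtrl and 29.5 and 28.7 CPM in siFAM53C. The groups overlapped, with siCtrl 1 the lowest of the 5 libraries, and the log2 fold change was 0.09 (SE 0.14). The MAPKAPK5 value is less certain than that of MAPK6, because 757 of its exon bases lie opposite exons of the antisense gene MAPKAPK5-AS1 and the alignment was run as reverse-stranded while the setting used for counting is not given, and because another 2261 are shared with ADAM1A and ENSG00000292259 on its own strand. MAPKAPK5-AS1 had 195, 136 and 155 counts in siCtrl and 310 and 233 in siFAM53C, with a log2 fold change of 0.46 (SE 0.20) that did not pass the test (adjusted p = 0.2955 in edgeR). MAPK6 has 0 exon bases opposite exons of another gene, although the LEO1 gene runs opposite its first part, and it shares 54 exon bases with ENSG00000289025 on its own strand.

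Among the classical members, MAPK3 (ENSG00000102882, chr16:30114105-30123506, minus strand) was at 56.1, 54.1 and 39.6 CPM in siCtrl and at 66.7 and 55.0 CPM in siFAM53C. siCtrl 3 was the lowest and siFAM53C 1 the highest, while siFAM53C 2 lay among the siCtrl libraries. Its log2 fold change was 0.29 (SE 0.17), and on each side of the split it was 0.28 and 0.47. MAPK7 (ENSG00000166484, chr17:19377721-19383544, plus strand) was at 28.1, 27.3 and 29.8 CPM in siCtrl and 28.7 and 31.6 CPM in siFAM53C, so the groups overlapped, and its log2 fold change was 0.09 (SE 0.13), with 346 of its exon bases opposite exons of B9D1 and MFAP4. The other atypical kinase gene, MAPK4 (ENSG00000141639, chr18:50560087-50731826, plus strand), had 0 counts in all 5 libraries. At this depth a level of up to 0.113 to 0.157 CPM, the worth of 3 counts, could have been missed in a library. Of ERK3 and ERK4, the counts thus came from ERK3 alone.

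**Figure D1:**
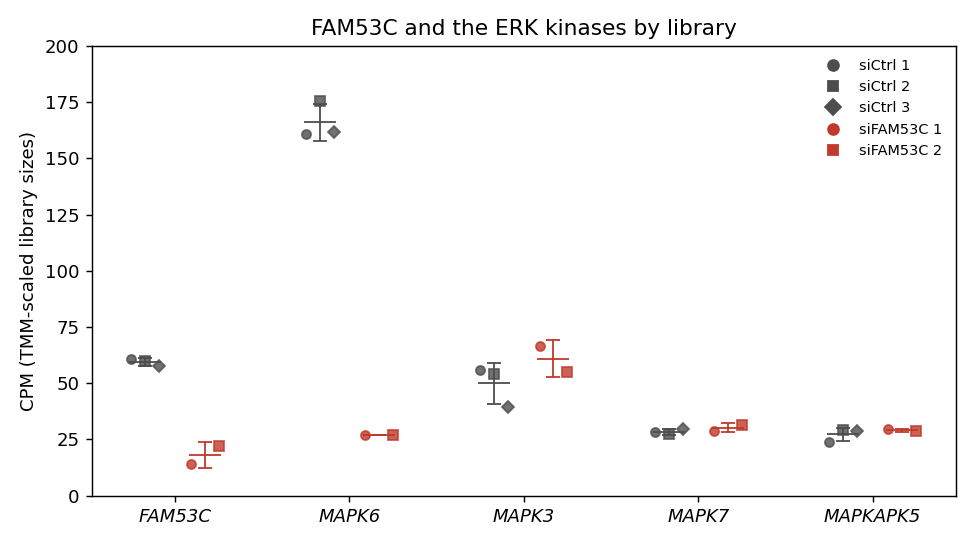
Scaled counts (CPM) of FAM53C and of the 4 kinase genes with counts, with a point for each of the 3 siCtrl (grey) and 2 siFAM53C (red) libraries and the group mean ± SD as lines. MAPK6 goes from 161 to 176 CPM in siCtrl to 27.0 and 26.8 CPM in siFAM53C, while the groups overlap for MAPK3, MAPK7 and MAPKAPK5.

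To set the genes beside each other, CPM were divided by the length of all annotated exons in kilobases. On this scale of levels the order in siCtrl was MAPK6 at 25.2 ± 1.26, MAPK3 at 13.6 ± 2.46, MAPK7 at 5.47 ± 0.246 and MAPKAPK5 at 1.96 ± 0.203 CPM per kb (SD, n = 3), and no neighbours in it overlapped over the 3 libraries. With the length of the MANE Select transcript, the reference transcript of each gene, MAPK6 was at 31.2 ± 1.56 and MAPK3 at 27.9 ± 5.04 CPM per kb, and these overlapped, with 30.2 for MAPK6 and 31.4 for MAPK3 in siCtrl 1. In siFAM53C, MAPK6 was at 4.08 ± 0.0175 CPM per kb of exon (SD, n = 2), below MAPK7 at 5.80 ± 0.388, whereas MAPK3 came first at 16.6 ± 2.26. By the length of all annotated exons, the share of MAPK6 in the summed level of the 5 genes was 52.1%, 54.7% and 56.9% in siCtrl. In siFAM53C it was 13.7% and 14.96%. The share depends on the length used and was not computed with MANE Select lengths. Per count of MAPKAPK5 there were 6.68, 6.04 and 5.60 counts of MAPK6 in siCtrl and 0.914 and 0.935 in siFAM53C, a ratio of counts that is not corrected for length.

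**Figure D2:**
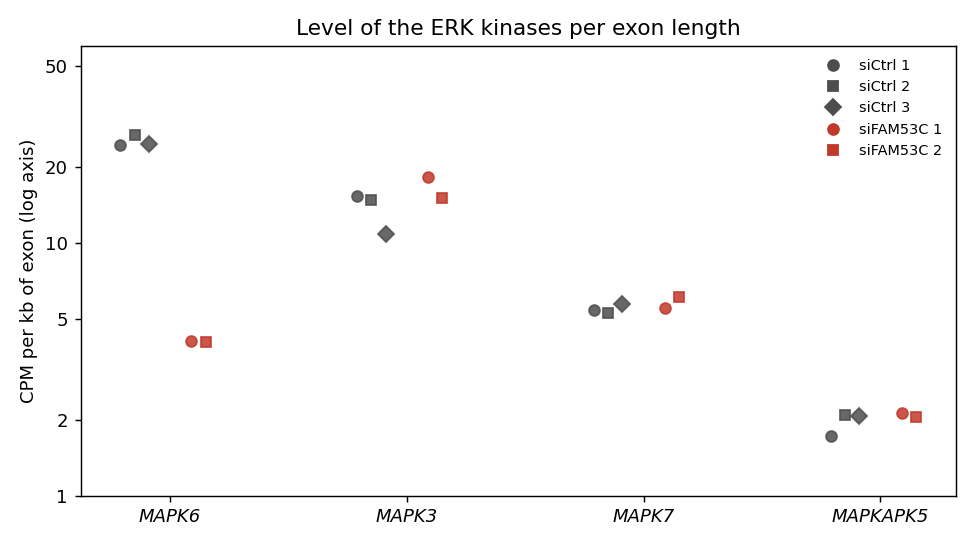
Levels of the 4 kinase genes with counts in CPM per kb of annotated exon, on a log axis, with a point for each siCtrl (grey) and siFAM53C (red) library. MAPK6 stands above MAPK3 in siCtrl and below MAPK7 in siFAM53C.

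Nearby genes and copies of MAPK6 were examined next, since a change over a whole stretch of the chromosome or reads shared with copies would both touch its value. Of the 9 tested genes within or next to MAPK6 on chromosome 15, 0 were called by edgeR's quasi-likelihood test, by DESeq2 or by limma-voom, beside 3.47% lower and 0.489% higher over all genes, and 2 were lower at an unadjusted p under 0.05 in edgeR, beside 10.5% of all genes. DESeq2 gave an adjusted p for 6 of the 9, the others having few counts. The 2 genes were TMOD2, an actin-capping tropomodulin, at -0.53 (SE 0.21), and the motor protein gene MYO5A at -0.37 (SE 0.12). LEO1, a subunit of the PAF1 transcription complex whose gene overlaps that of MAPK6 on the other strand, was at 0.16 (SE 0.13), TMOD3 at -0.05 (SE 0.16) and the G protein subunit gene GNB5 at -0.06 (SE 0.11). The divergent transcript MAPK6-DT had 1, 1 and 0 counts in siCtrl and 3 and 9 in siFAM53C, near the limit of detection. Of the 6 annotated pseudogenes MAPK6P1 to MAPK6P6, 5 had 0 counts throughout and MAPK6P3 had 3, 0, 1, 0 and 1. How reads that match several places were treated is not given in the sources used here.

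The 5 genes whose pattern over the 5 libraries was most like that of MAPK6, by the root mean square difference of log2 CPM from each gene's own siCtrl mean, were ADGRL2 (0.0999), ITGB8 (0.101), LSM5 (0.115), SNX3 (0.172) and GTF3A (0.175). ADGRL2, a latrophilin adhesion receptor, had 41.1 ± 1.97 CPM in siCtrl and 7.18 ± 0.797 in siFAM53C, and ITGB8, an integrin subunit, had 68.6 ± 5.99 and 10.2 ± 0.808 (SD, n = 3 and n = 2). LSM5, part of the Lsm ring that binds U6 RNA and decaying mRNA, had 45.1 ± 3.75 and 6.52 ± 0.505 CPM. SNX3, a sorting nexin of endosomes, had 120 ± 15.5 and 22.4 ± 0.770 CPM, and GTF3A, the transcription factor of 5S RNA genes, had 159.8 ± 23.8 and 29.4 ± 0.166 CPM. In all 5 genes both siFAM53C libraries lay below every siCtrl library, with log2 fold changes of -2.51, -2.75, -2.79, -2.42 and -2.44 in the order named. The likeness rests on the same 5 libraries and the same comparison by which MAPK6 was chosen, and it is a description.

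**Figure D3:**
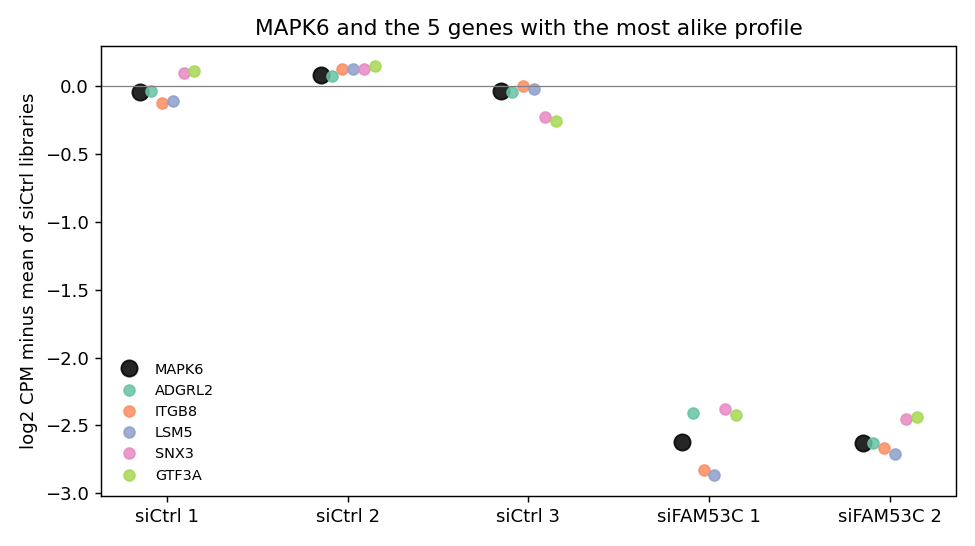
Log2 CPM of MAPK6 and of the 5 genes with the most similar pattern in each library, relative to the siCtrl mean of each gene. All 6 genes lie near 0 in the siCtrl libraries and more than 2 log2 units below it in both siFAM53C libraries, with SNX3 and GTF3A lower than the others in siCtrl 3.

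The 3′ UTR of MAPK6 holds the letters GACAAGA, a heptamer taken from an earlier analysis of these counts in which it went with lower values. It was searched on the mRNA strand in the longest annotated 3′ UTR of each gene. It occurs once in MAPK6, 259 bases into a 3′ UTR of 2375 bases, and once in MAPKAPK5, 7123 bases into a 3′ UTR of 9161 bases, and not in MAPK4, MAPK3 or MAPK7. The 30 bases around the first match in MAPK6, MAPKAPK5, each of the 5 genes of similar pattern and RASA1, which is described below, are printed with the heptamer in capitals, since it is what their sequences share.
MAPK6: aaatgcactaaGACAAGAacattctctcat
MAPKAPK5: caatcactggaGACAAGAgatgctcttcca
ADGRL2: ttactattcctGACAAGActtggaaaagca
ITGB8: gtggttgaataGACAAGAacagctagatga
LSM5: tggcttataatGACAAGAaaatggaatttt
SNX3: ttttggcagttGACAAGAagttaatttgct
GTF3A: tacatgatcctGACAAGAagaaaatgaagc
RASA1: tgaaatcaactGACAAGAaacacattctta
They lie at chr15:52065248-52065277 (MAPK6, exon 6 of 6), chr12:111900173-111900202 (MAPKAPK5, exon 14 of 14), chr1:81991574-81991603 (ADGRL2), chr7:20410462-20410491 (ITGB8), chr7:32487198-32487227 (LSM5, minus strand), chr6:108211978-108212007 (SNX3, minus strand), chr13:27435158-27435187 (GTF3A) and chr5:87391253-87391282 (RASA1) of GRCh38. In GTF3A the match lies in exon 7 of 8 of a transcript other than MANE Select, and in the others it is in the MANE Select 3′ UTR.

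All 5 genes of similar pattern thus hold the heptamer in their longest 3′ UTR, and all but GTF3A in the MANE Select 3′ UTR. The heptamer and these genes were both picked for lower values in the same libraries, so nothing is read from this, and of the 25 genes with a 3′ UTR among the 50 with the lowest log2 fold changes 14 hold it. It occurs in 15.1% of 12096 tested genes with a 3′ UTR, 16.1% of the 2134 whose 3′ UTR is 2000 to 3000 bases long, and 16.0% hold its reverse complement. In MANE Select 3′ UTRs the share over all genes is 10.6%. Of the genes with the heptamer 12.5% were called lower in siFAM53C, and of those without it 2.88%, in the comparison by which the heptamer had been picked. MAPKAPK5, which holds it too, was at a log2 fold change of 0.09. FAM53C, the target of the siRNAs, was at -1.71 and holds 1 match in its longest and its MANE Select 3′ UTR. Of the 69 pathway genes described below 15 hold the heptamer (21.7%). RASA1 alone of these was called lower, while MEF2A, also called lower, does not hold it. A match is a description of the letters and not a binding site, the sequences of the siRNAs are not given in the sources used here, and the part of the heptamer in the MAPK6 values was not tested.

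The rest of the pathway was followed with 6 lists, 70 genes in all, of which 69 passed the filter and MAPK15, at 0 counts, did not. Of the 69 genes 2 were called lower (2.90%), beside 3.47% of all genes, and 1 higher (1.45%), beside 0.489%, in the edgeR test, adjusted over all genes tested. Their median log2 fold change was -0.07, with 41 genes below 0 and 28 above, and the median of all genes tested was 0.02. Both siFAM53C libraries lay below every siCtrl library in 20 of the 69 genes (29.0%, beside 18.8% of all genes) and above in 8 (11.6%, beside 16.7% of all genes). At an unadjusted p under 0.05 in edgeR 13 were lower and 4 higher, beside 10.5% and 6.61% of all genes. DESeq2 called 6 of these genes lower and 2 higher, beside 5.79% and 1.63% of all genes, and limma-voom 2 and 1, beside 3.35% and 0.482%. A term for the library split gave 12 lower and 5 higher, beside 10.7% and 6.76% of all genes with that term.

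Regulators and partners of ERK3 and ERK4 formed the first list. Of its 14 genes 1 was called higher and 0 lower by edgeR, and the list's median was 0.04. At an unadjusted p under 0.05 in edgeR 4 were lower (10.5% of all genes) and 1 higher (6.61%), DESeq2 called 1 lower and 1 higher, and limma-voom 0 and 1. The higher gene was USP20, a deubiquitinase reported to act on ERK3 protein. It was at 20.5, 17.9 and 21.5 CPM in siCtrl and 34.0 and 32.2 CPM in siFAM53C, above every siCtrl library in both, with a log2 difference of 0.73 ± 0.14 (SE) and an adjusted p of 0.0308 in edgeR. The USP20 call was lost without siCtrl 1 (0.75, adjusted p = 0.121), siCtrl 2 (0.65, 0.131), siFAM53C 1 (0.68, 0.237) or siFAM53C 2 (0.76, 0.156), where edgeR had fewer libraries.

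The kinases that phosphorylate ERK3 and the small GTPases RAC1 and CDC42 above them did not pass the edgeR test of the condition alone. PAK1 was at 0.22 (SE 0.21), PAK2 at -0.30 (SE 0.13) and PAK3 at -0.66 (SE 0.30) on the log2 scale. With the term for the library split they were called, PAK1 higher (adjusted p = 0.0234 in edgeR) and PAK2 and PAK3 lower (0.00662 and 0.0139). These calls rest on a split seen in the same counts. CDC42, which switches PAK kinases on, was at 0.18 (SE 0.13), with overlapping groups. RAC1, which does so too, was at 496, 512 and 432 CPM in siCtrl and 372 and 356 CPM in siFAM53C. Both siFAM53C libraries lay below the siCtrl libraries, and the log2 fold change of RAC1 was -0.40 (SE 0.12, adjusted p = 0.1397 in edgeR). Among other settings, RAC1 was called lower by DESeq2 (adjusted p = 0.04), by edgeR without siCtrl 3 (-0.46, 0.0238) and with the split term (-0.37, 0.00364).

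In the classical ERK cascade, with 17 genes from receptor to kinases and scaffolds, 1 gene was called lower and 0 higher by edgeR, and the median was -0.12. At an unadjusted p under 0.05 in edgeR 4 were lower (10.5% of all genes) and 2 higher (6.61%), DESeq2 called 2 lower and 1 higher, and limma-voom 1 and 0. The lower gene was RASA1, a GTPase-activating protein that switches RAS off. It was at 84.6, 76.4 and 107 CPM in siCtrl and 24.6 and 31.4 CPM in siFAM53C. The groups were far apart, at -1.67 on the log2 scale (SE 0.18, adjusted p = 0.003179 in edgeR) and at -1.71 and -1.76 on the sides of the library split. RASA1 was called under each of the 14 alternative settings, at -1.86 to -1.51, and 771 of its exon bases lie opposite another gene.

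The RAS genes HRAS and NRAS were not called in the edgeR fit of the condition alone. HRAS had 970, 240 and 155 counts in siCtrl and 23 and 39 in siFAM53C. Both siFAM53C libraries were below every siCtrl library, but siCtrl 1 was several times the other siCtrl libraries, and the log2 fold change of -4.04 (SE 0.97) had an adjusted p of 0.1303 in edgeR. HRAS was called lower by DESeq2, by edgeR without siCtrl 1 (-3.03, adjusted p = 0.0356) and by edgeR without robust variance moderation. NRAS was at 111, 122 and 111 CPM in siCtrl and 88.6 and 92.5 CPM in siFAM53C, below every siCtrl library in both, and its log2 fold change was -0.34 with an SE of 0.10 and an adjusted p of 0.138 in edgeR, or 0.0114 with the split term. In the other direction, the adaptor gene SHC1 was at 0.38 (SE 0.11) and the MEK gene MAP2K2 at 0.32 (SE 0.13), above every siCtrl library in both siFAM53C libraries and not called in that fit. SHC1 was called higher by DESeq2 (adjusted p = 0.023), and edgeR called both higher with the split term (0.0028 and 0.00641).

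In the ERK5 module, with 10 genes upstream and downstream of MAPK7, 1 gene was called lower and 0 higher by edgeR, and the median was -0.19. At an unadjusted p under 0.05 in edgeR 2 were lower (10.5% of all genes) and 1 higher (6.61%), and DESeq2 and limma-voom each called 1 lower and 0 higher. The lower gene was MEF2A, a transcription factor of a family that ERK5 phosphorylates. It was at 77.0, 72.3 and 73.8 CPM in siCtrl and 42.5 and 42.9 CPM in siFAM53C, with little spread in either group. Its log2 fold change was -0.80 (SE 0.10, adjusted p = 0.006298 in edgeR), and the call was lost without siFAM53C 1 (adjusted p = 0.0788) or siFAM53C 2 (adjusted p = 0.0624), at -0.80 and -0.81. Of its exon bases 792 lie opposite another gene. Its relative MEF2D was at 0.30 (SE 0.11), the ERK5 kinase MAP2K5 at 0.09 (SE 0.19) and the ERK5 target KLF2 at -0.45 (SE 0.19), none of them called in this fit. MEF2D was called higher with the split term (adjusted p = 0.0487 in edgeR) and KLF2 lower without the filter on low counts (0.0243).

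The other MAP kinases, JNK, p38 and NLK among them, had 8 tested genes, of which 0 were called by edgeR or limma-voom, 3 were lower at an unadjusted p under 0.05 (10.5% of all genes) and 0 higher, and 2 were called lower by DESeq2. The JNK genes MAPK8 and MAPK9 were at -0.56 (SE 0.19) and -0.45 (SE 0.12), NLK at -0.70 (SE 0.16, adjusted p = 0.0598 in edgeR) and the p38 gene MAPK14 at -0.09 (SE 0.10). MAPK9 and NLK were the genes called by DESeq2, and edgeR called both without siCtrl 3 (-0.46, adjusted p = 0.0452, and -0.69, 0.0368), while all but MAPK14 of these 4 were called lower with the split term or without the filter on low counts. In 5 of the 8 genes (62.5%, beside 18.8% of all genes) both siFAM53C libraries lay below every siCtrl library. Among the 10 kinases that MAP kinases activate, the group to which MAPKAPK5 belongs, 0 were called by edgeR, DESeq2 or limma-voom, 0 had an unadjusted p under 0.05, and the median was 0.14. Its closest relatives MAPKAPK2 and MAPKAPK3 were at 0.17 (SE 0.09) and -0.05 (SE 0.22).

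**Figure D4:**
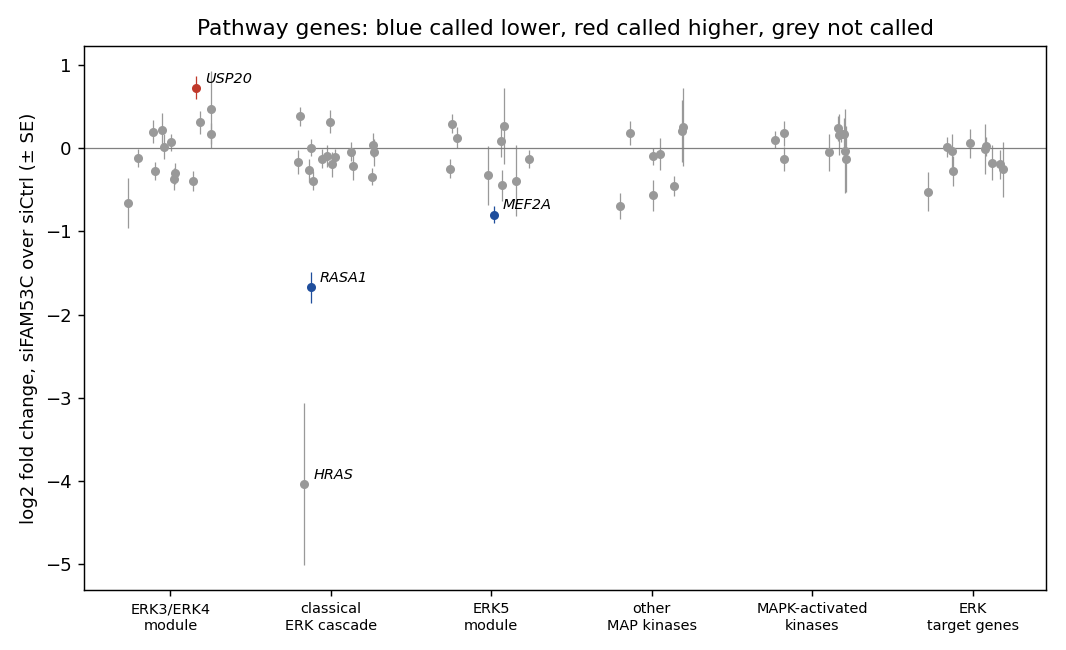
Log2 fold changes (siFAM53C over siCtrl, ± SE) of the 69 tested genes of the 6 pathway lists, a point per gene, with genes called lower in blue, called higher in red and not called in grey. RASA1 (-1.67) and MEF2A (-0.80) are called lower and USP20 (0.73) higher, and HRAS (-4.04) lies farthest from 0 without being called.

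The last list held 10 genes that classical ERK signalling is known to switch on, as a transcriptional readout of the classical cascade. Of these, 0 were called by edgeR, DESeq2 or limma-voom, 0 had an unadjusted p under 0.05, and the median log2 fold change was -0.10. The ERK phosphatase gene DUSP6 was at -0.52 (SE 0.23), and edgeR called it lower without siCtrl 3 (-0.69, adjusted p = 0.0343). In 7 of the 10, siCtrl 3 and siFAM53C 2 both lay below the other 3 libraries, which held for 16% of all genes tested, while EPHA4 lay above them in both and EPHA2 and SPRY4 overlapped. Whether the list differs from other genes in this was not tested. The median deviation of the list from the siCtrl mean was 0.12, 0.09 and -0.21 on the log2 scale in siCtrl 1, 2 and 3 and 0.08 and -0.38 in siFAM53C 1 and 2. SPRY2, an inhibitor of receptor signalling, was at 83.2, 87.7 and 52.8 CPM in siCtrl and 94.2 and 54.5 CPM in siFAM53C. The ETS factor ETV4 was at 21.8, 21.1 and 11.9 CPM in siCtrl and 19.6 and 11 CPM in siFAM53C, so that in both genes 1 library of each group was low. MAPK6 did not share this pattern, with siCtrl 3 only 0.06 below siCtrl 1 and 2 on the log2 scale, while MAPK3 was lower in siCtrl 3 by 0.48.

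**Figure D5:**
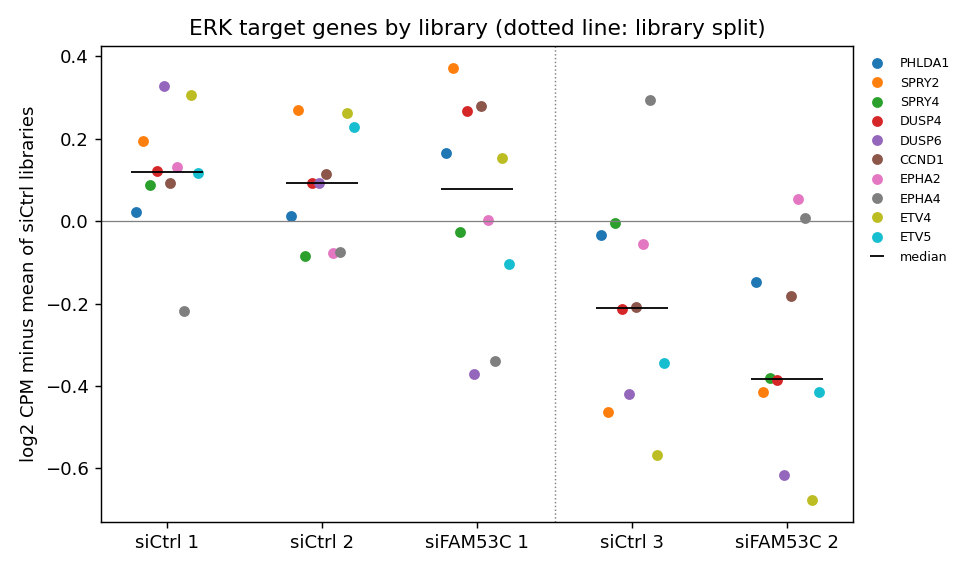
Log2 CPM of the 10 ERK target genes in each library relative to the siCtrl mean of each gene, with the median of the list as a bar and the library split as a dotted line. The medians are 0.12 and 0.09 in siCtrl 1 and 2 and 0.08 in siFAM53C 1, left of the line, and -0.21 in siCtrl 3 and -0.38 in siFAM53C 2, right of it.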

How the data were processed

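Raw counts per gene were used for 3 siCtrl and 2 siFAM53C libraries of RPE-1 cells. CutAdapt 2.10 was used by the authors for trimming, HISAT2 for alignment to hg38 and featureCounts for the counts, which were deposited without normalization. The alignment used reverse strandedness by the methods, and the annotation release and the setting for the counting are not given in the sources used here. Symbols, positions and sequences are from GENCODE 44 on GRCh38, which matched 56105 of the 64252 identifiers.

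In R 4.3.3 with edgeR 4.0.16, genes were filtered by filterByExpr (minimum count 10, minimum total 15), libraries were scaled by TMM factors, and conditions were compared by edgeR's robust quasi-likelihood test on the condition alone, with Benjamini-Hochberg adjustment over all genes and a threshold of 0.05. A prior count of 2 entered log2 CPM. The fits were tested on simulated data. The members, lists, heptamer and settings were chosen with earlier results of these counts known. The named genes are FAM53C, markers of the line and of other cell types, the 5 kinases, called list genes and up to 4 examples per pathway list. MAPK6 copies and neighbours and the 5 genes of most similar pattern are named too. Some genes of the pathway lists are not reported here and were left out of all list counts. MAPKAPK5-AS1, ADAM1A, B9D1, MFAP4, ENSG00000292259 and ENSG00000289025, which overlap kinase genes, and CDC42, EPHA2, EPHA4 and SPRY4 were added after values were seen. The alternatives were DESeq2 1.42.0, limma-voom (limma 3.58.1), other scaling, no filter, each library left out, 2 replicate blocks, a term for the library split and, added after seeing the data, no robust moderation. Counts limit the precision for genes with few reads, and floors of 3 counts cover counting error only.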

Additional observations from a re-analysis of the deposited data

How the results depend on the processing

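Under 14 alternatives the log2 fold change of MAPK6 ranged from -2.65 to -2.55, the latter with scaling by total counts only, MAPKAPK5 from 0.01 to 0.16, MAPK3 from 0.13 to 0.42 and MAPK7 from 0.01 to 0.16. The count of all genes called lower was 533 and of those called higher 75. It was 888 and 254 with DESeq2, which was run on 26587 genes and not on the 15341 that passed the filter, 961 and 375 without the filter, and 1636 and 1037 with the library split term, and 121 were higher with total counts only, where the share of lower calls went from 87.7% to 77.4%. Leaving out 1 library gave 157 to 886 lower and 6 to 414 higher. The extremes were 157 without siFAM53C 1, 6 without siCtrl 2, and 886 and 414 without siCtrl 3. Of the pathway genes, 2 lower and 1 higher in the fit reported, DESeq2 gave 6 and 2, no filter 6 lower, the split term 12 and 5, and leaving out 1 library 1 to 6 lower and 0 to 2 higher. The cause of these shifts was not tested.

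The titles number siFAM53C libraries 1 and 2 and the library names 1 and 3. Same-numbered libraries had correlations of deviations of 0.17 and -0.28 by titles, and 0.17 and 0.37 by names. The deviations of the 2 siFAM53C libraries from their mean are exact opposites, so these signs are tied and cannot decide a pairing. With siCtrl 2, siFAM53C 1 had a correlation of 0.28. The labels do not say whether a number marks a shared batch, so the libraries were not treated as paired, and whether they are was not settled. A replicate block by titles gave 856 lower and 355 higher genes and 5 lower pathway genes, among them DUSP6 (-0.70, adjusted p = 0.0346 in edgeR), RAC1 (-0.47, 0.0402) and NLK (-0.69, 0.0306), and a block by names gave 1350 and 642, with 11 and 4 pathway genes, all of which the split term called too. When a siFAM53C library is left out, the lone sample is assumed to vary like the siCtrl libraries.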
